A study of Homo sapiens with 12 samples.

Results

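The 12 elements described here are the Pumilio elements in which the adenine at position 4 of the consensus TGTANATA was replaced, while positions 1 to 3 and 6 to 8 kept the consensus base. They were chosen by a sequence rule that uses no editing value, although earlier results of these data were known by then. The rule takes 3 new bases (C, G or T) at position 4, each with any of the 4 bases at position 5. The consensus leaves position 5 free. All 12 were among the 1006 elements listed in all 12 libraries, of which 1005 were 8-base elements and 1 was an entry named EMPTY, whose sequence was not used here. Each member was set against the consensus element with the same base at position 5, its partner, so 3 members share each partner and the comparisons with it are not independent.

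The libraries come from HEK293T, a human embryonic kidney line labelled wild-type, which carried a library of recorder mRNAs with an element in the 3′ UTR beside a recorder hairpin. The design text gives 3 biological replicates in each of 4 groups: cells with a fusion of human PUM2 to ADARcdMUT that was not induced, the same fusion labelled 25 ng, the same fusion labelled 250 ng, and ADARcdMUT without PUM2, labelled 1000 ng. Doxycycline is named as the inducer, and the labels do not say what substance the amounts in ng refer to. The labels name no deletion of the cells' own PUM2, and recorder amplicons carry no markers by which the cell line could be checked. Editing is given as the percentage of the recorder's 7 adenosines, summed over reads, that carried an edit.

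PUM2 is an RNA-binding protein of the Puf family, whose RNA-binding domain is a curved stack of repeats, and each repeat reads a single RNA base, with the chain of the protein running against that of the RNA. The UGUA at the start of the element is the most conserved stretch of Puf binding sites, its adenine at position 4 closes this core, and the base at position 5 is read loosely. In cells, Pumilio proteins bound to such elements in 3′ UTRs recruit deadenylases and lower the stability and translation of the mRNA. ADAR enzymes convert adenosine to inosine, which sequencing reads as guanosine, so that a tethered ADAR domain leaves edits in the RNA to which its partner protein binds.

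The members and their partners are printed in full because every result rests on this 1 base and its neighbour. Each is written 5′ to 3′ with T for U, and the capital marks position 4. Position 1 is the 5′ base of an element.
Consensus, A at position 5: tgtAaata
Consensus, C at position 5: tgtAcata
Consensus, G at position 5: tgtAgata
Consensus, T at position 5: tgtAtata
A4C, A at position 5: tgtCaata
A4C, C at position 5: tgtCcata
A4C, G at position 5: tgtCgata
A4C, T at position 5: tgtCtata
A4G, A at position 5: tgtGaata
A4G, C at position 5: tgtGcata
A4G, G at position 5: tgtGgata
A4G, T at position 5: tgtGtata
A4T, A at position 5: tgtTaata
A4T, C at position 5: tgtTcata
A4T, G at position 5: tgtTgata
A4T, T at position 5: tgtTtata

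The libraries held between 11235321 and 25127959 reads. A member had 7503 to 44146 reads in a library, which gives its share of edited reads a median counting error of 0.210 to 0.323 percentage points per library. This error covers counting only, since no molecular identifiers are mentioned and reads may be PCR copies. No pair of replicate libraries agreed within sampling noise in its read counts, with 6.24 to 201.7 chi-square units per degree of freedom.

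In the non-induced fusion and with ADARcdMUT alone, the members were edited near the mean of the rest of the library. Their mean was 1.88% ± 0.130 (SD over 3 libraries) in the non-induced fusion and 1.96% ± 0.137 with ADARcdMUT alone, beside 1.80% ± 0.0504 and 1.78% ± 0.0477 for the 4 consensus elements and 1.83% ± 0.0981 and 1.95% ± 0.115 for all 8-base elements. Single members ranged from 1.71% for tgtGcata to 1.98% for tgtGgata in the non-induced cells, and every member overlapped its neighbour in that order. No member was called between ADARcdMUT alone and the non-induced fusion (0 of 12 called by limma on log2 odds, 0 at an unadjusted p under 0.05 and 0 by a quasi-binomial model, where 0.199% of all 1006 elements were called higher).

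All 12 members were edited more in both induced groups than in the non-induced cells, and as a class they stood between the intact consensus and the elements without TGT. At 25 ng the members reached 5.06% ± 0.325 and at 250 ng 9.29% ± 0.166, while the consensus elements reached 7.06% ± 0.522 and 13.0% ± 0.227. The 652 elements without TGT stood at 4.30% ± 0.167 and 7.85% ± 0.111. The members thus rose 4.94-fold from the non-induced cells to 250 ng, the consensus elements 7.22-fold and the elements without TGT 4.31-fold. The lowest member at 250 ng, tgtGgata, did not stand apart there from the elements without TGT. Its 3 libraries at 250 ng (7.86 to 7.98%) overlapped their means (7.73 to 7.95%), and it rose 4.01-fold. At 25 ng the lowest was tgtTgata (4.20 to 4.93%), followed by tgtGgata (4.39 to 4.89%). Both overlapped the means of the elements without TGT at 25 ng (4.17 to 4.49%).

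The highest member at 250 ng was tgtGtata, with 10.2, 10.3 and 10.6% in the 3 libraries of that group. It stood at 5.32, 5.98 and 5.27% at 25 ng, at 1.76, 2.15 and 1.89% without induction and at 2.09, 2.08 and 1.73% with ADARcdMUT alone. The 2 induced groups lay apart from each other and above both control groups, which overlapped. The element tgtTtata gave 9.85, 9.77 and 10.7% at 250 ng, 5.42, 5.98 and 5.24% at 25 ng, 1.62, 2.14 and 1.69% without induction and 2.05, 2.12 and 1.80% with ADARcdMUT alone. The element tgtCtata, with 9.82, 10.0 and 10.3% at 250 ng and 1.84, 2.07 and 1.98% without induction, overlapped both of them. These 3 members share a T at position 5 and differ only in the new base at position 4.

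The lowest member at 250 ng was tgtGgata, at 7.86, 7.98 and 7.98%, from 4.42, 4.89 and 4.39% at 25 ng, 1.79, 2.12 and 2.03% without induction and 2.17, 2.08 and 2.10% with ADARcdMUT alone. The next was tgtTgata, at 8.22, 8.37 and 8.36% at 250 ng and 1.84, 2.003 and 1.93% without induction, and then tgtCgata, at 8.36, 8.58 and 8.77% and 1.72, 2.06 and 1.88%. All 3 carry a G at position 5. Only tgtGgata was separated from its neighbour in the order at 250 ng, its 3 libraries lying below all 3 of tgtTgata, and the other neighbours overlapped. Between these ends lay tgtGaata at 9.74% ± 0.192, tgtTcata at 9.67% ± 0.308, tgtTaata at 9.59% ± 0.204, tgtCcata at 9.17% ± 0.247, tgtCaata at 9.03% ± 0.162 and tgtGcata at 8.94% ± 0.164. Among all 1006 elements at 250 ng the members held ranks from 24 (tgtGtata) to 411 (tgtGgata), and the 4 consensus elements held ranks 1, 2, 3 and 7.

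On the absolute scale the rise was not particular to these elements. In the limma fit of the log2 odds of an edit over all 12 libraries, with Benjamini-Hochberg adjustment over all elements, 12 of 12 members were higher at 250 ng and at 25 ng than in the non-induced fusion, higher at 250 than at 25 ng, and higher in both induced groups than with ADARcdMUT alone. In each of these 5 comparisons 100% of the 1006 elements were called higher. The largest rise among the members from the non-induced cells to 250 ng was that of tgtTtata, 5.56-fold, and the smallest that of tgtGgata.

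Relative to the rest of the library, 9 of the 12 members rose and the 3 with a G at position 5 were not called. Each library's median log2 odds was subtracted before this fit, in which 9.64% of all elements were called higher and 3.38% lower at 250 ng against the non-induced fusion. The largest relative increases were 0.41 ± 0.070 (log2, SE, limma adjusted p = 0.000922) for tgtTtata, 0.35 ± 0.058 (adjusted p = 0.000676) for tgtGtata and 0.33 ± 0.062 (adjusted p = 0.00183) for tgtGaata. The smallest among those called were 0.19 ± 0.060 (adjusted p = 0.0465) for tgtCaata and 0.19 ± 0.059 (adjusted p = 0.0428) for tgtCcata. The values for the members with G at position 5 were 0.08 (95% interval -0.05 to 0.21) for tgtCgata, 0.01 (-0.13 to 0.14) for tgtTgata and -0.11 (-0.22 to 0.01) for tgtGgata. The median over the members was 0.27, beside 0.01 over all elements and 0.67 to 0.93 for the 4 consensus elements. The count of 9 fell to 5 when any of the 3 libraries at 250 ng, or replicate 3 of the non-induced fusion, was left out, where 6.56 to 9.05% of elements were called higher, and to 5 (7.95% of elements) on the deposited efficiency score, the product of edits per read and the edited share of reads. Centred on EMPTY, which itself fell by 0.19 relative to the library median, 11 members were called higher. Over all elements the calls then split into 556 higher and 2 lower, against 97 and 34 with the library median.

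At 25 ng against the non-induced fusion 6 of the 12 members were called higher relative to the library median and none lower, where 7.06% of all elements were called higher and 2.19% lower. They were tgtTtata at 0.38, tgtGtata at 0.28, tgtGaata at 0.26, tgtGcata at 0.26, tgtTaata at 0.25 and tgtCtata at 0.24. With EMPTY as the centre 10 members were called, and the calls over all elements shifted with them, to 393 higher and 0 lower against 71 and 22 with the library median. Set against ADARcdMUT alone, 9 members were called higher at 250 ng and 7 at 25 ng, and 0 lower, beside 10.3% and 7.55% of all elements called higher and 4.37% and 2.49% called lower. These comparisons share their induced libraries with those above. ADARcdMUT alone and the non-induced fusion were called apart in 0 members (1 at an unadjusted p under 0.05, 0.199% of elements called higher). Between 25 and 250 ng 0 of 12 members differed by the test relative to the median (0 at an unadjusted p under 0.05, 0% of all elements called), with values from -0.06 to 0.07, although 1 member was called higher, as were 3.48% of elements, when the arcsine of the square root of the edited fraction was tested in place of the log2 odds.

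With the induced fusion every member was edited less than the consensus element that keeps the adenine, and with the non-induced fusion none was called so. At 250 ng the gap of a member to its partner ran from -0.47 (tgtCgata) to -0.66 (tgtGcata) on the log2 odds scale, and the largest limma adjusted p among the 12 was 0.000624. At 25 ng the gaps ran from -0.38 (tgtCgata) to -0.68 (tgtGcata), again with 12 of 12 called. Nearly every element with 1 or 2 substitutions was called below its partner in these groups, 99.9% of 840 in each, so the calls do not set these members apart. In all 12 members the 3 libraries lay below the 3 of the partner at 25 ng and at 250 ng, and in none of them without induction or with ADARcdMUT alone. This was not counted over the 840 elements, so it does not set the members apart either.

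Averaged over the 12 members, the gap per library was -0.55 ± 0.016 (SD, n = 3) at 250 ng, which is an odds ratio of 0.684, and -0.51 ± 0.029 at 25 ng. The median gap over all 840 substituted elements was larger, -0.82 and -0.76. Without induction the mean gap of the members was 0.06 ± 0.125, with replicate 2 at 0.21 and the other libraries both at -0.01, and with ADARcdMUT alone it was 0.15 ± 0.077. The change from the non-induced fusion to 250 ng, -0.61, reached the smallest p that 3 against 3 libraries allow in a two-sided exact permutation test (p = 0.10, 0.15 after adjustment over 6 comparisons). Between 25 and 250 ng the mean gap differed by -0.04 (exact permutation p = 0.20, adjusted 0.24).

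In the limma fit of single members, the gap widened in 12 of 12 from the non-induced fusion to both induced groups, as in 99.3% of the 840 elements at 250 ng and 99.5% at 25 ng. Against ADARcdMUT alone it widened in 12 of 12 as well, with 100% and 99.9% of elements called. From 25 to 250 ng 0 of 12 were called on the log2 odds scale (0 at an unadjusted p under 0.05, 0% of elements called), while on the arcsine scale, where a given ratio is a larger step at a higher level, 11 of 12 were called wider, as were 95.2% of the 840 elements.

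With ADARcdMUT alone 2 members stood slightly above their partners, tgtCtata by 0.34 (limma adjusted p = 0.0315) and tgtTcata by 0.19 (adjusted p = 0.0336), where 23.7% of the 840 elements were called above and 0.595% below. The partner tgtAtata had 1.37, 1.69 and 1.75% in these libraries, and tgtCtata 2.21, 1.96 and 1.88%. The count rests on single libraries: it was 0 without replicate 1 or replicate 2 of ADARcdMUT alone, 4 without replicate 1 or 2 of the non-induced fusion, and 1 without replicate 1 or 3 at 25 ng or any library at 250 ng. The share of the 840 elements called above was 13.9% and 10.5% without replicates 1 and 2 of ADARcdMUT alone, 28.1% and 31.4% without those of the non-induced fusion, and 14.5 to 16.9% in the other cases named. In the non-induced fusion 0 of 12 members were called in either direction (3 at an unadjusted p under 0.05, 2 above and 1 below), beside 0% of elements called above and 0.238% below.

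Expressed in percentage points over the median of the elements without TGT, a value formed after the data were seen and given with no test, the members kept 28.6% ± 0.984 of the consensus elements' excess at 250 ng and 27.6% ± 2.19 at 25 ng. At 250 ng the share kept was 39.1% with T at position 5, 30.4% with A, 25.8% with C and 13.0% with G. The members with T thus stood 2.38 points above the elements without TGT, and those with G 0.476 points. No baseline from the control groups was removed from these values. Over the library median, the members with G stood at 0.08 ± 0.033 (log2 odds) without induction. They stood at 0.09 ± 0.020 with ADARcdMUT alone and 0.08 ± 0.0063 at 250 ng, so their offset did not grow with induction. Those with T stood at 0.06 ± 0.072, 0.03 ± 0.042 and 0.41 ± 0.030 in these groups.

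Between the 3 bases that replaced the adenine no difference was called by limma. At 250 ng the mean gap to the partner was -0.56 ± 0.015 for C, -0.56 ± 0.018 for G and -0.52 ± 0.022 for T. Of the 12 pairs of members with the same base at position 5 but different new bases, 0 were called at 250 ng and 0 at 25 ng (0 at an unadjusted p under 0.05 in either group), where over all 7 substituted positions 9.52% of 84 such pairs were called in 1 direction and 8.33% in the other, in each of these groups. The largest differences at 250 ng were 0.12 for tgtCgata over tgtGgata (95% interval -0.01 to 0.24) and -0.12 for tgtGcata minus tgtTcata (-0.26 to 0.01). These intervals bound what 3 libraries can show, and do not make the 3 bases alike. On the arcsine scale 4 of the 12 pairs were called at 250 ng and 1 at 25 ng, where 51.2% and 31.0% of the 84 pairs were called. With a spread taken from the 250 ng libraries alone 7 of the 12 and 75.0% of the 84 were called. In the non-induced fusion 0 pairs were called (2 at an unadjusted p under 0.05, beside 0% and 2.38% of the 84 pairs) and with ADARcdMUT alone 0 (1 at an unadjusted p under 0.05, beside 1.19% and 3.57%), or 1 without its replicate 1.

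The members were ordered by the base at position 5, with T highest and G lowest. At 250 ng the 3 members with T at position 5 averaged 10.2% ± 0.304, those with A 9.46% ± 0.185, those with C 9.26% ± 0.200 and those with G 8.28% ± 0.114. These means per library did not overlap between T and the others or between G and the others, while those of A and C overlapped. Of 18 pairs of members that differ only at position 5, 9 were called by limma at 250 ng, 4 with the base earlier in the alphabet higher and 5 with it lower, where 15.9% and 15.2% of 132 such pairs over the consensus and all single substitutions were called. All 9 set either T above another base or another base above G. The widest was tgtGgata minus tgtGtata, -0.42 ± 0.058 (log2 odds, SE, adjusted p = 0.000431), followed by tgtGaata minus tgtGgata, 0.32 ± 0.065 (adjusted p = 0.00194), and tgtTgata minus tgtTtata, -0.31 ± 0.070 (adjusted p = 0.00443). At 25 ng 8 of the 18 were called, 2 and 6 in the respective directions beside 14.4% and 12.9% of pairs, and each again placed T above or G below.

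The number of these pairs depended on single libraries. At 250 ng it was 5 without replicate 1 and 2 without replicate 3 of that group. At 25 ng it was 2 without replicate 1 or replicate 2, 3 without replicate 3 and 5 without any library at 250 ng. The share of all 132 pairs called at 250 ng was 21.2% and 12.1% without replicate 1 and 3, and at 25 ng 12.9%, 12.1% and 15.2% without replicates 1, 2 and 3 and 22.0% without any library at 250 ng. On the arcsine scale 14 of the 18 pairs (62.1% of the 132) were called at 250 ng, and 16 (80.3%) with the spread of the 250 ng libraries alone. The difference itself was steadier than the count: over the members, T minus G at position 5 was 0.33 ± 0.033 at 250 ng (0.30 to 0.37 over the 3 libraries) and 0.27 ± 0.018 at 25 ng (0.26 to 0.29).

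This order was not seen in the control groups. T minus G over the members was -0.02 ± 0.060 in the non-induced fusion and -0.05 ± 0.022 with ADARcdMUT alone, and the change to 250 ng reached the smallest exact permutation p of 0.10 (0.12 adjusted over 6 comparisons) against either control. The few pairs called in these groups ran the other way. In the non-induced fusion tgtGcata minus tgtGgata was -0.22 (limma adjusted p = 0.0395), 1 of 18 pairs, beside 1.52% of pairs called higher and 2.27% lower. With ADARcdMUT alone tgtGaata minus tgtGgata was -0.27 and tgtGcata minus tgtGgata -0.23, 2 of 18 pairs, beside 1.52% called higher and 3.79% lower. The call in the non-induced fusion was lost when any 1 of the 9 libraries of the PUM2 fusion was left out, on the arcsine scale and with the spread of that group alone. Those with ADARcdMUT alone became 1 without its replicate 3 and 0 without replicate 2 at 250 ng, on the arcsine scale or with the spread of that group alone.

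The intact consensus elements had the same order of T and G. T minus G in the consensus elements was 0.31 ± 0.045 at 250 ng and 0.27 ± 0.088 at 25 ng, close to the members' values. The consensus element tgtAgata gave 11.7, 11.3 and 11.4% at 250 ng, below tgtAaata (12.9, 13.3 and 13.6%), tgtAcata (13.5, 13.0 and 13.8%) and tgtAtata (13.9, 13.5 and 14.2%) in all libraries. Whether this difference is equal in the consensus and the members was not tested.

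Among the 7 fixed positions of the element, substitutions at position 4 had a middle place in the gap to the partner at 250 ng. The mean gap of the 12 single substitutions at a position at 250 ng was -0.72 ± 0.037 at position 1, -0.65 ± 0.044 at position 2, -0.75 ± 0.025 at position 3, -0.55 ± 0.016 at position 4, -0.51 ± 0.011 at position 6, -0.50 ± 0.019 at position 7 and -0.41 ± 0.017 at position 8. These gaps include differences present without induction, where position 2 stood at -0.04 ± 0.026 and position 4 at 0.06 ± 0.125. From the non-induced fusion to 250 ng, editing rose 4.96-fold at position 2 and 4.94-fold at position 4. Position 2 was thus not set below position 4 by its rise. Substitution of the adenine that closes the UGUA core lowered editing less than substitution of the T before it: position 4 stood above position 3 by 0.20 ± 0.012 at 250 ng and 0.17 ± 0.0072 at 25 ng, in each of the 3 libraries of both groups. Without induction the difference was 0.03 ± 0.024. Position 4 stood above position 1 by 0.17 ± 0.021 at 250 ng, of which 0.11 ± 0.037 was already present in the non-induced fusion. Position 4 minus position 6 was -0.03 ± 0.0074 at 250 ng, -0.02 ± 0.017 at 25 ng and 0.10 ± 0.016 in the non-induced fusion.

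With ADARcdMUT alone these differences were 0.01 ± 0.067 against position 3, 0.03 ± 0.022 against position 1 and -0.01 ± 0.051 against position 6. The changes from the non-induced fusion to 250 ng were 0.17 against position 3, 0.07 against position 1 and -0.13 against position 6. Each reached the smallest exact permutation p that 3 against 3 libraries allow, 0.10, with 0.12, 0.12 and 0.20 after adjustment over 6 comparisons, and none can pass a threshold of 0.05 in this design. Set against ADARcdMUT alone, the changes to 250 ng were 0.19 for position 3 and 0.15 for position 1 (exact permutation p = 0.10, adjusted 0.12, for both) and -0.03 for position 6 (exact permutation p = 0.40, adjusted 0.48), where the libraries overlapped. The size of the change thus depended on the control for position 1, and for position 6 it was seen only against the non-induced fusion. The partner is the same within a library, so the differences between positions do not depend on the partners' own values.

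1 member holds a Pumilio core in another frame. The substitution A4G followed by T at position 5 gives tgtGtata, which holds TGTA from position 3 (TGTATA at positions 3 to 8). Of the 12 members it is the only 1 with TGTA, which 18.4% of the 1005 8-base elements contain, searched as written on the strand given. In all, 7 elements carry TGTATA at positions 3 to 8, and the other 6 are AGTGTATA, CGTGTATA, GGTGTATA, TATGTATA, TCTGTATA and TTTGTATA. At 250 ng these 6 were edited at 9.26% (GGTGTATA) to 10.6% (TCTGTATA), and in all 3 libraries each lay above every element that differs from it only at position 5, whose levels averaged 7.34 to 8.06%. For tgtGtata the 3 elements with another base at position 5 averaged 8.88%, and it too lay above them in all 3 libraries. At 25 ng this held in 3 libraries for AGTGTATA, CGTGTATA, TATGTATA and TCTGTATA, but in only 2 for GGTGTATA, TTTGTATA and tgtGtata.

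At 250 ng tgtGtata was not called apart from the members with the same base at position 5. The elements tgtCtata and tgtTtata, which lack TGTA, were edited at 10.1% ± 0.251 and 10.1% ± 0.509 at 250 ng beside 10.4% ± 0.180, and neither pair was called by limma. Without tgtGtata the mean gap of the other 11 members to their partners at 250 ng was -0.55 ± 0.015. Without induction the 7 elements lay between 1.72 and 1.94%.

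Both components of editing rose in the members. At 250 ng 24.1% ± 0.318 of their reads carried an edit, beside 7.14% ± 0.217 without induction, and an edited read carried 2.71 ± 0.017 edits beside 1.84 ± 0.101, as medians over the members. In the consensus elements the values at 250 ng were 29.2% ± 0.287 and 3.20 ± 0.038. The lowest member in both was tgtGgata, with 22.5% ± 0.231 and 2.47 ± 0.0051, and the highest in edits per edited read was tgtGtata, with 25.5% ± 0.654 and 2.84 ± 0.040. All 12 members were called higher by limma in the share of edited reads, as were 100% of elements at 25 and at 250 ng against the non-induced fusion, and all 12 in edits per edited read, beside 100% of elements at 250 ng and 99.8% at 25 ng.

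Relative to the library median, 5 members were called higher in edits per edited read at 250 ng (tgtCtata, tgtGaata, tgtGtata, tgtTcata and tgtTtata, beside 4.77% of elements) and 3 at 25 ng (tgtCtata, tgtGtata and tgtTtata, beside 2.68%). In the share of edited reads 3 were called at 250 ng (tgtGcata, tgtGtata and tgtTtata, beside 6.66%) and 2 at 25 ng (tgtGcata and tgtTtata, beside 5.57%). The 3 members with G at position 5 were in none of these lists. Each count moved with single libraries. The shares of all elements called in those refits are not given here, so the moves cannot be called particular to the members. The 5 became 2 without replicate 1 or 2 at 250 ng or replicate 1 or 3 of the non-induced fusion, and 1 without replicate 3 at 250 ng. The 3 in edits per edited read became 0 without any library at 25 ng or replicate 1 of the non-induced fusion, and 1 without its replicate 3. The 3 in the share of edited reads became 1 without replicate 3 at 250 ng, 7 without replicate 1 and 5 without replicate 2 of ADARcdMUT alone. The 2 became 0 without replicate 3 at 25 ng and 1 without any other library at 25 ng or any of the non-induced fusion.

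The abundance of the members, as their share of all reads, was measured beside their editing. Each member took 0.0815 to 0.179% of the reads without induction and 0.0902 to 0.177% at 250 ng. In the edgeR quasi-likelihood test 0 of 12 were called at 250 ng against the non-induced fusion (4 at an unadjusted p under 0.05, 3 of them higher) and 0% of all elements, while DESeq2 called 2 members and 30.9% of all elements. At 25 ng against the non-induced fusion 0 were called by either tool (0 at an unadjusted p under 0.05, 0% of elements), and between 25 and 250 ng again 0 by either (3 at an unadjusted p under 0.05, 0% of elements). Without replicate 2 at 25 ng 4 were called at 250 ng against the non-induced fusion, and 1 without replicate 1 at 25 ng. Without the latter, 3 were called between 25 and 250 ng. The shares of all elements called in these refits are not given here, so these calls do not set the members apart.

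Set against ADARcdMUT alone, 8 of the 12 members differed in reads at 250 ng, where 31.7% of all elements were called higher and 34.8% lower. The 4 higher were tgtGtata by 0.38 (log2), tgtTgata by 0.29, tgtTaata by 0.22 and tgtGcata by 0.12, and the 4 lower were tgtGgata, tgtCcata, tgtGaata and tgtCgata, at -0.13 to -0.16. A share of 8 in 12 is close to that of the library as a whole, and members of high and of low editing stand on both sides. ADARcdMUT alone differed from the non-induced fusion in 0 members (1 at an unadjusted p under 0.05, 0% of elements; DESeq2 called 1 and 9.34% of elements), and 25 ng from ADARcdMUT alone in 0 by either tool (2 at an unadjusted p under 0.05, 0% of elements). Leaving out replicate 2 at 25 ng or replicate 3 of ADARcdMUT alone gave 1 call each in the former, and 3 and 1 in the latter. Here too the shares of all elements in the refits are not given.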

How the data were processed

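Amplicons of the recorder 3′ UTR were sequenced, per the labels' protocols. The text on RNA extraction speaks of embryos of another species, but the source, the cell line and the design text all name HEK293T, which is used here. No aligner, edit caller or filter on reads is given in the sources used here. The deposited tables hold, per element, counts of reads, of edited reads and of edits, and the count of all reads in the library. The authors also deposited an efficiency score and percent values, of edited adenosines and of all reads. The deposited percent of edited adenosines matched 100 × edits / (7 × reads) within 1e-09. Elements at or under 1000 reads are not listed (lowest 1015), and 16 of the 1022 elements in any library were not in all 12 and were left out.

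Groups and replicate numbers came from the sample titles. Editing was tested as log2((edits + 0.5) / (7 × reads − edits + 0.5)) with limma 3.58.1 in R 4.3.3, all 12 libraries in 1 fit, as such, after subtraction of the library median, as the gap to the consensus partner over 840 elements with 1 or 2 substitutions, and as differences between members. P-values were adjusted by Benjamini-Hochberg over all rows of a fit, and a call is an adjusted p under 0.05. Mean gaps per library were compared by two-sided exact permutation tests. Reads were tested with edgeR 4.0.16, with DESeq2 1.42.0 as an alternative. The fit relative to the library median and the fit of the gap to the partner were tested on simulated data with known changes between 25 and 250 ng. A known change of 0.25 was found in 29.2% of cases relative to the median and in 4.5% for the gap. A known change of 0.5 was found in 100% and 97.3%. In the simulation a change of 0.25 between these groups was thus mostly missed. Its spread included shifts of whole libraries, drawn anew for each element, which subtraction of the median or the partner removes in the real data. Counting noise was added on top, so these shares do not measure what the fits of the real data can find.

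The members, lists and tests were chosen with earlier results of these data known. All 12 members, their partners and EMPTY are named whatever their values, and other elements only by the shifted core. Alternatives changed the pseudocount (0.1 and 2), the read minimum (5000), the scale, the centre, the spread, the replicate block and the libraries left out, 1 at a time. Same-numbered libraries of different groups did not deviate together once the library median was subtracted, which also removes any shift of a whole library.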

Additional observations from a re-analysis of the deposited data

How the results depend on the processing

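All 12 members kept their higher absolute editing in the 5 comparisons with an induced group, and all members with a partner their place below it at 25 and 250 ng, under every alternative run. The minimum of 5000 reads removed the partner tgtAtata, so gaps there cover 9 members, and 1 rather than 2 then stood above the partner with ADARcdMUT alone. On the arcsine scale 1 member (3.48% of elements) rose relative to the median from 25 to 250 ng, 11 gaps (95.2% of elements) widened between these groups, 0 members stood above the partner with ADARcdMUT alone, 4 base pairs at position 4 were called at 250 ng and 1 at 25 ng (51.2% and 31.0% of all such pairs), and position 5 pairs numbered 14 at 250 ng (62.1% of all) and 0 in each control group. With the log2 odds of the share of edited reads, members higher relative to the median numbered 3 (250 ng) and 2 (25 ng) against the non-induced fusion and 5 and 4 against ADARcdMUT alone, 1 stood above its partner with ADARcdMUT alone, position 5 pairs numbered 5 at 25 ng and 1 with ADARcdMUT alone, and the mean gap was -0.35 at 250 ng and -0.30 at 25 ng. The deposited score gave 5 members higher at 250 ng and 1 position 5 pair with ADARcdMUT alone. Fitting only the groups compared gave 7 base pairs and 16 position 5 pairs at 250 ng (75.0% and 80.3% of all such pairs), 0 position 5 pairs and 0 members above the partner in the controls, and 7 members in the share of edited reads at 250 ng. DESeq2 called 2 members in reads at 250 ng against the non-induced fusion and 1 for ADARcdMUT alone against it (30.9% and 9.34% of elements). Centred on EMPTY, which moved the median of all elements by 0.20 at 250 ng and 0.16 at 25 ng, 10 members and 39.1% of all elements were called higher at 25 ng, and tgtGgata (0.083 at 250 ng, 0.12 at 25 ng) and tgtTgata (0.15 at 25 ng) changed sign without a call. Where no share of all elements or pairs stands beside a count here, the count shows only how it moved with the setting. It does not set the members apart from the library. The causes were not tested.

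Leaving out 1 library at a time gave 5 to 9 members higher relative to the median at 250 ng against the non-induced fusion, 0 to 4 above the partner with ADARcdMUT alone, and 0 to 1 base pairs there. Position 5 pairs ranged from 2 to 10 at 250 ng, 2 to 9 at 25 ng, 0 to 1 without induction and 0 to 2 with ADARcdMUT alone. Relative calls against the non-induced fusion ranged from 1 to 6 (250 ng) and 0 to 3 (25 ng) in edits per edited read and from 1 to 7 and 0 to 3 in the share of edited reads. Calls in reads ranged from 0 to 4 for 250 ng against the non-induced fusion, 0 to 3 for 250 against 25 ng and for 25 ng against ADARcdMUT alone, and 0 to 1 for ADARcdMUT alone against the non-induced fusion. These ranges show how far the counts moved and do not set the members apart from the library. The uncalled relative change of tgtTgata ranged from -0.0053 (without replicate 2 of the non-induced fusion) to 0.012 at 250 ng, and from -0.041 to 0.018 (without replicate 3 at 25 ng) at 25 ng.

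After subtraction of the library median and the group mean, same-numbered libraries did not deviate together. Correlations of their deviations ran from -0.09 to 0.07, and 0 of 18 passed 0.1. A shift of whole libraries that share a number is removed by this centring, so the check cannot show it. With the replicate number as a block, 8 members were higher relative to the median at 250 ng and 5 at 25 ng against the non-induced fusion, 0 stood above the partner with ADARcdMUT alone, and 1 was called in reads at 250 ng against the non-induced fusion. These counts are given without the shares of all elements, and so do not set the members apart from the library. With 3 libraries a group, an exact test cannot go below 0.10.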
